A study of Botryllus schlosseri with 12 samples.

Results

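During the first day of whole-body regeneration in Botryllus schlosseri, 32561 contigs were measured. Described here are 183 that fell by at least 1 on a log2 scale from 0 to 6 hours post-injury (hpi). By 18 and 24 hpi they had fallen by at least 1 again, and their mean level lay in a set window. Botryllus schlosseri is a colonial tunicate whose zooids lie in a common tunic and share a network of vessels. Each of the 12 libraries came from a separate subclone of an isogenic strain, whose zooids and buds had been cut away, which left the vessels, the tunic and, per the study, often small remnants of zooids attached to it. Colonies were frozen 6, 18 or 24 h after the surgery, or directly after it (0 hpi), with 3 libraries per time point. No intact colony was among them, so that 0 hpi is the only baseline and also follows surgery.

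The 183 contigs were chosen by their own levels. For each contig the count was divided by the library total and scaled to CPM (counts per 1000000 counts of the library), and log2(CPM + 1) was averaged over the 3 libraries of a time point. A contig entered the set if its mean over the 12 libraries lay from 5 to under 500 CPM, which 25956 contigs fulfilled. In addition, its mean log2 level had to be at least 1 lower at 6 than at 0 hpi, at least 1 lower than at 6 hpi at whichever of 18 and 24 hpi was higher, and at least 1 lower than at 6 hpi on the average of 18 and 24 hpi. These differences are called the first fall (0 to 6 hpi) and the second fall (from 6 hpi to the higher of both later means). The contig of coagulation factor XIIIb also met the rule and was kept apart for comparison. Since the levels at 0, 6, 18 and 24 hpi made the selection, the falls are given as a description, also where a fit over all contigs supplies calls for these time points. The difference between 24 and 18 hpi was the comparison least tied to the rule, which still bounds both means from above.

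A contig is a reading frame predicted on a transcript that was assembled de novo with Trinity, and its identifier records this origin. In TRINITY_DN13609_c0_g3_i1.p1, DN13609_c0 is the component of the assembly graph, g3 the Trinity gene, i1 the transcript and p1 the reading frame. Contigs of a component share stretches of sequence, and may be pieces, variants or relatives of a gene. The count table pairs no gene names with contigs, and names that the study gave by similarity to human proteins were not used here. The study's gene trees name 4 contigs of the table, and among these the XIIIb contig alone met the rule. In vertebrates coagulation factor XIII is the enzyme that cross-links fibrin at the end of clotting, and its B subunit is a carrier protein built of sushi domains. Tunicates circulate hemocytes through the vessels of the tunic, and these cells gather where a vessel is cut.

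Total counts per library ranged from 2076597 to 3992991. The contigs that the study named as TIE1/2, a receptor of vessel cells in vertebrates, and Sox7/17/18, a transcription factor of vertebrate endothelium, were detected in every library (5.01 to 22.7 CPM and 27.2 to 92.6 CPM). Other tissue markers were not checked here, since the count table carries no gene names. In such bulk samples fewer cells of a type and less RNA per cell cannot be told apart.

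The members together took 2.21, 1.99 and 2.08% of all counts in the 3 libraries of 0 hpi. This share was 0.472, 0.636 and 0.582% at 6 hpi, 0.127, 0.111 and 0.112% at 18 hpi and 0.106, 0.123 and 0.119% at 24 hpi. The median member had 76.3, 67.6 and 69.2 CPM in the libraries of 0 hpi and 15.7, 18.8 and 19.7 CPM in those of 6 hpi. It had 3.21, 3.17 and 2.75 CPM at 18 hpi and 2.1, 2.41 and 3.08 CPM at 24 hpi. The ranges over members were wide at every time point, from 0 to 79.7 CPM in replicate 1 of 24 hpi and from 5.48 to 1310.3 CPM in replicate 3 of 0 hpi. Each member had a count in every library of 0 hpi, whereas between 12 and 30 members were without a count in a library of 18 or 24 hpi. All 183 passed the filter on low counts.

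**Figure D1:**
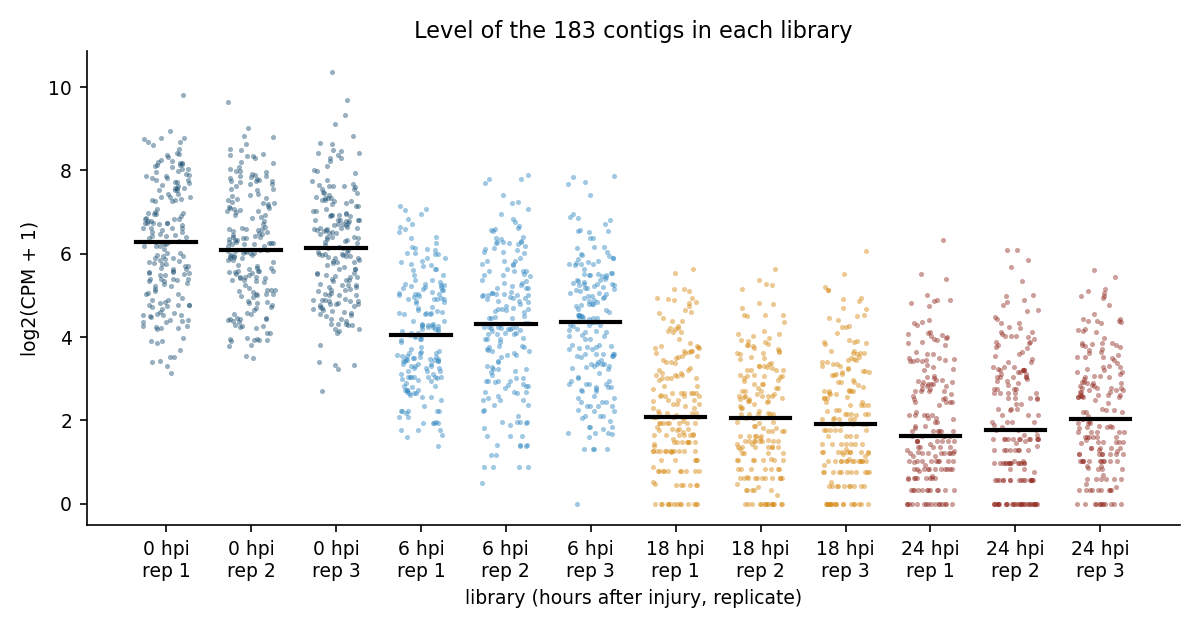
Each point is a member contig in a library, with log2(CPM + 1) on the vertical axis and the 12 libraries, ordered by hours after injury, on the horizontal axis. Black bars are medians over the 183 members, which correspond to 67.6 to 76.3 CPM at 0 hpi, 15.7 to 19.7 CPM at 6 hpi and 2.1 to 3.21 CPM at 18 and 24 hpi.

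Of the 183 members, 152 had all libraries of 0 hpi above all of 6 hpi, and these above all 6 libraries of 18 and 24 hpi. This order was found in 1.51% of the contigs in the same window of mean CPM, and nothing is read from the difference because the rule asks for it. Overlap between 6 and 0 hpi occurred in 4 members, and between the later libraries and those of 6 hpi in 28. These counts follow from the rule too, and nothing is read from them. To see how far the rule depends on any library, it was applied to the other 11, and the library left out was set beside the members so chosen. Left-out libraries of 0 hpi lay above all libraries of 6 hpi in 95.3 to 96.9% of these members. In the contigs of the window this share was 28.4 to 32.4%. Those of 6 hpi lay between the other time points in 84.0 to 87.1% of members (window, 2.90 to 3.06%). Those of 18 and 24 hpi lay below all libraries of 6 hpi in 89.2 to 97.8% of members. The window had 23.8 to 25.9% at 18 hpi and 24.7 to 36.2% at 24 hpi. The rule had already selected a gap between the time points on the other 11 libraries, so that these shares describe the spread of single libraries and are no support for the pattern.

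The first fall had a median of 1.67 on the log2 scale (1.005 to 4.91), and the second fall a median of 1.6 (1.01 to 3.68). From 0 hpi to the mean of 18 and 24 hpi the level fell by a median of 4.06 on this scale (2.34 to 6.86). The first fall was the larger in 97 members and the second in 86. This split holds for log2(CPM + 1), where the added 1 shortens falls that end near 0 CPM. In the fit over all contigs given below, the members' median log2 fold change was -1.70 at 6 against 0 hpi. It was -2.53 at 18 against 6 hpi and -2.47 at 24 against 6 hpi. Expressed per hour on the scale of log2(CPM + 1), the median fall was 0.278 from 0 to 6 hpi and 0.157 from 6 to 18 hpi. In 148 members the fall per hour was larger in the first interval. Nothing is read from this, since the rule asks for a fall of at least 1 in both intervals, of 6 and 12 h. The added 1 also shortens the second fall, and when it took place between 6 and 18 hpi is not known. In 19 members both falls were at least 2. TRINITY_DN17841_c4_g2_i5.p1, singled out after the values were seen, had 40.8, 45 and 23.6 CPM at 0 hpi, 3.25, 1.62 and 0 CPM at 6 hpi, and no count in the 6 later libraries. Against a floor of 3 counts over these 6 libraries, its estimated later level was at least 236-fold lower than at 0 hpi. Not all estimates of this contig were whole numbers, so that reads were divided with similar contigs and their split is uncertain.

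**Figure D2:**
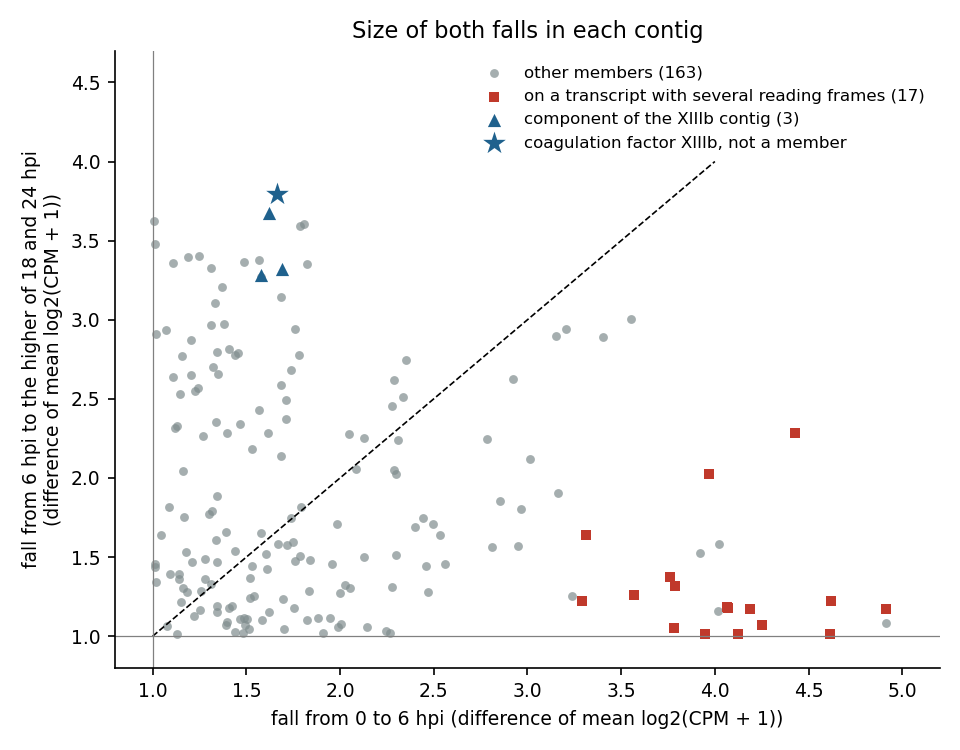
Each point is a contig, placed by its first fall (horizontal axis) and its second fall (vertical axis), both as differences of mean log2(CPM + 1). Grey lines mark the threshold of 1 and the dashed line equal falls. The 17 members on transcripts with several reading frames (squares) have first falls from 3.29 to 4.91, and the XIIIb contig (star) lies beside the 3 members of its component (triangles).

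The contig with the most counts at 0 hpi was TRINITY_DN12949_c3_g2_i4.p1. It had 902, 802 and 1310.3 CPM at 0 hpi, 95.4, 124 and 112 CPM at 6 hpi, 17.6, 11.3 and 13.4 CPM at 18 hpi and 3.10, 13.0 and 4.90 CPM at 24 hpi. Its falls of 3.15 and 2.90 also placed it at rank 3 among members by the smaller of both falls. TRINITY_DN12907_c4_g4_i1.p1 followed with 411, 445 and 831 CPM at 0 hpi and 113, 237 and 169 CPM at 6 hpi, and its later libraries lay between 9.72 and 27.8 CPM. Here the second fall (3.14) was the larger, and the first was 1.68. TRINITY_DN11882_c0_g3_i2.p1 came next, with 295, 515 and 649 CPM at 0 hpi, 141, 222 and 233 CPM at 6 hpi and between 8.71 and 25.9 CPM later. In all 3 contigs the time points did not overlap, apart from 18 and 24 hpi. CPM are not divided by contig length, so that this order is of counts and not of transcript numbers.

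The smaller of both falls was largest in TRINITY_DN12883_c0_g6_i1.p1 (3.56 and 3.00). This contig had 225, 255 and 355 CPM at 0 hpi, 19.8, 18.8 and 29.7 CPM at 6 hpi, 4.63, 1.58 and 0.688 CPM at 18 hpi and 1.84, 0.963 and 2.05 CPM at 24 hpi. TRINITY_DN12883_c0_g7_i1.p1 of the same component was second, with falls of 3.21 and 2.94. It had 172, 197 and 259 CPM at 0 hpi, 22.6, 14.6 and 29.5 CPM at 6 hpi and at most 3.74 CPM later. All 5 contigs of component DN12883_c0 in the table were members, with a median of 142 CPM at 0 hpi, 12.8 CPM at 6 hpi, 0.467 CPM at 18 hpi and 0.877 CPM at 24 hpi.

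At the other end, 32 members had a smaller fall from 1 to under 1.1, and 46 contigs of the window missed the rule with a smaller fall from 0.9 to under 1. Just inside lay TRINITY_DN14573_c0_g4_i1.p1, with a first fall of 1.005 and a second of 3.62. It had 61.0, 80.6 and 105 CPM at 0 hpi, 36.9, 44.6 and 37.5 CPM at 6 hpi and 0.963 to 3.21 CPM later. TRINITY_DN14624_c0_g1_i3.p5 was just inside by its second fall (1.01), after a first fall of 4.61. Just outside lay TRINITY_DN13412_c1_g2_i3.p1, whose second fall was 0.996, with 135, 168 and 84.1 CPM at 0 hpi, 35.2, 34.5 and 51.5 CPM at 6 hpi and 8.42 to 23.3 CPM later. TRINITY_DN17897_c0_g1_i2.p1 missed by its second fall of 0.994, although 3 other contigs of its component were members.

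The XIIIb contig shared its component with members only. Component DN13609_c0 has 4 contigs in the table, of which g3 is the XIIIb contig and g2, g4 and g5 are members. The XIIIb contig had 77, 124 and 170.0 CPM at 0 hpi, 32.0, 48.0 and 31.2 CPM at 6 hpi, 2.49, 3.17 and 0.344 CPM at 18 hpi and 1.05, 0.482 and 1.54 CPM at 24 hpi. Its first fall was 1.67 and its second 3.79.

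TRINITY_DN13609_c0_g5_i1.p1 had 50.9, 81.9 and 94.7 CPM at 0 hpi, 24.3, 24.2 and 21.2 CPM at 6 hpi, 0.356, 1.85 and 0 CPM at 18 hpi and 0.525, 1.93 and 0.513 CPM at 24 hpi. TRINITY_DN13609_c0_g2_i1.p1 had 45.8, 67.6 and 83.7 CPM at 0 hpi, 18.2, 30.0 and 12.6 CPM at 6 hpi, and at most 2.38 CPM later. TRINITY_DN13609_c0_g4_i1.p1 had 27.8, 46.3 and 62.0 CPM at 0 hpi, 9.72, 21.7 and 12.3 CPM at 6 hpi, and at most 0.688 CPM later. In all 4 contigs replicate 1 was the lowest and replicate 3 the highest library of 0 hpi. The ratio of g4 to the XIIIb contig was 0.304, 0.452 and 0.393 in the 3 libraries of 6 hpi, against 0.361, 0.375 and 0.365 in those of 0 hpi. The ratio of g5 was 0.759, 0.504 and 0.679 at 6 hpi, against 0.661, 0.662 and 0.557 at 0 hpi. That of g2 was 0.57, 0.626 and 0.405 at 6 hpi, against 0.595, 0.547 and 0.492 at 0 hpi. All 3 ratios varied more between libraries at 6 hpi than at 0 hpi, where counts were higher. Summed over 3 libraries, g4 had 109 counts at 6 hpi against 482 at 0 hpi, and the XIIIb contig 278 against 1310. Whether the ratios varied beyond counting noise was not tested. All estimates of these 4 contigs were whole numbers, so that no division of reads with other contigs shows in them. Whether they are parts of a transcript or neighbouring relatives is not recorded in the identifiers.

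**Figure D3:**
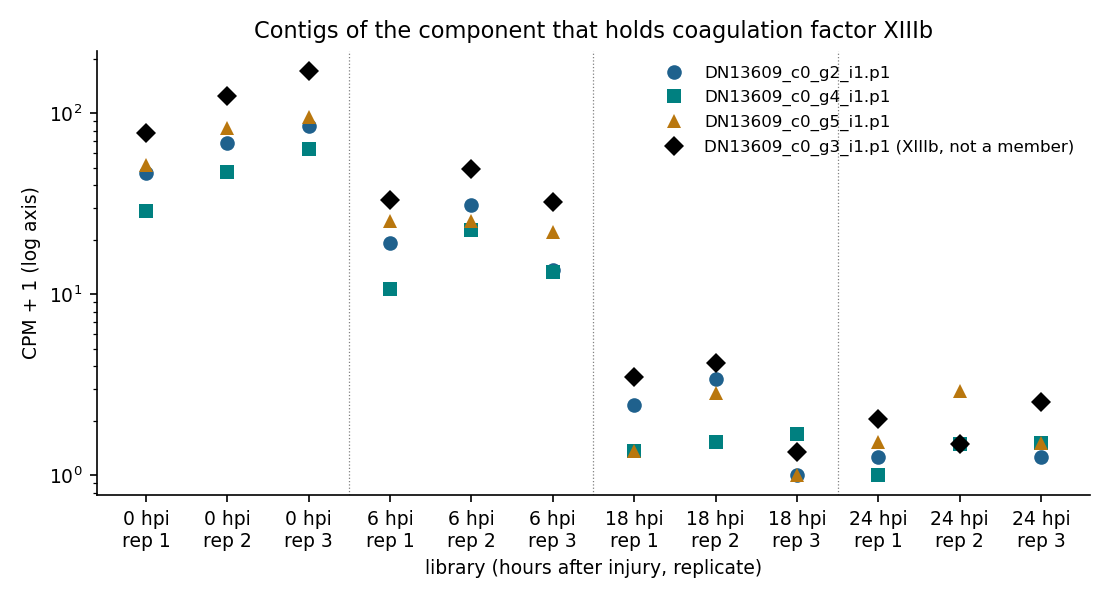
CPM + 1 on a log axis is shown for the 4 contigs of component DN13609_c0 in each of the 12 libraries, ordered by hours after injury. The XIIIb contig (diamonds) reads 31.2 to 48.0 CPM at 6 hpi, against 77 to 170.0 CPM at 0 hpi, and the 3 members (circles, squares, triangles) lie below it in every library of both time points.

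The profile of each member was also compared with that of the XIIIb contig, as the Euclidean distance between the 4 mean log2 levels after centring. The nearest of the 183 members was TRINITY_DN15389_c0_g2_i1.p1, at a distance of 0.294. It had 191, 237 and 275 CPM at 0 hpi, 52.3, 95.5 and 58.7 CPM at 6 hpi, 7.12, 4.75 and 2.75 CPM at 18 hpi and 1.05, 1.44 and 5.13 CPM at 24 hpi. Contig g2 of the XIIIb component was second (0.401) and TRINITY_DN12907_c4_g7_i1.p1 came next (0.456). The other 2 contigs of the component, g5 and g4, ranked 6 and 12. The further contigs named by the study went the other way: that of complement C3/5, the central protein of the complement cascade, averaged 366 ± 90.6 CPM at 0 hpi, 991 ± 5.13 CPM at 6 hpi, 894 ± 131 CPM at 18 hpi and 907 ± 102 CPM at 24 hpi (SD, n = 3 each).

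The 183 members came from 173 transcripts, 152 Trinity genes and 96 of the 11164 components in the table. Of these 96 components 49 held 1 member, and 134 members shared their component with at least 1 other member. How often as many contigs of the window would share a component was not computed. In 17 components of 2 or more contigs every contig was a member (46 members). The remaining contigs of the members' components, 198 in the window, were mostly lower later too. From 0 hpi to the mean of 18 and 24 hpi, 77.3% of them were lower by at least 1 on the log2 scale, against 5.44% of the 25574 contigs of components without a member. With contigs of whole estimates only, the shares were 75 and 5.10%. Contigs of a component are not separate observations, and DN12277_c6 alone held 32 of the 198, of which 31 were lower by at least 1. A Trinity gene was shared with a member by 78 of the 198, and 89.7% of these were lower by at least 1. Of the other 120 the share was 69.2%. Of the 198, 120 met the threshold of the first fall but not of the second, 30 that of the second but not of the first, and 48 neither. A rise by at least 1 was seen in 2 of them.

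Members of a Trinity gene did not always run in parallel within a time point. TRINITY_DN11882_c0_g3_i1.p1 had 317, 157 and 141 CPM at 0 hpi, with replicate 1 highest, whereas g3_i2 of the same gene, given above, had replicate 1 lowest. Both transcripts had estimates that were not whole, so that reads were divided between similar sequences. TRINITY_DN13885_c0_g1_i1.p1 had 364, 365 and 452 CPM at 0 hpi, 135, 168 and 204 CPM at 6 hpi and 15.7 to 40.2 CPM later. TRINITY_DN13885_c0_g1_i3.p2 of that gene had 224, 151 and 178 CPM at 0 hpi, 56.1, 82.0 and 92.3 CPM at 6 hpi and 9.10 to 22.5 CPM later. At 6 hpi replicate 1 was the lowest library in both. An estimate that was not whole occurred in 70 of the 183 members (38.3%), against 7599 of the 25956 contigs of the window (29.3%), and the split of counts between similar contigs is uncertain for these.

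The members with the steepest first falls included a group on transcripts that carry several reading frames. Among the 32113 transcripts with a contig in the count table, 394 (1.23%) have more than 1 reading frame. Among the members, 17 contigs lay on 7 such transcripts, which is 4.05% of the members' transcripts. All 17 had a first fall of at least 3 (3.29 to 4.91), which was the case for 11 of the other 166 members. In the window, a first fall of at least 3 was found in 69 of 751 contigs on such transcripts (9.19%), against 147 of 25205 other contigs (0.583%). The 69 lay on 25 transcripts and the 751 on 385. The reading frames of a transcript are parts of the same molecule and do not count as separate genes.

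In all 17, replicate 1 was the highest library of 0 hpi, at 1.65 to 2.92 times the mean of replicates 2 and 3. Replicate 1 was the highest in 50 of the other 166 members (30.1%). The 17 come from 5 components and are not separate observations. Among all contigs of the window with a first fall of at least 3, replicate 1 was the highest in 52.8%. Of those on transcripts with several reading frames it was the highest in 71.0%. The median of the 17 was 160, 66.6 and 49.1 CPM in the libraries of 0 hpi and 6.89, 2.09 and 3.71 CPM in those of 6 hpi, and at most 1.31 CPM in any later library. Transcript TRINITY_DN14624_c0_g1_i3 holds 8 of the 17, from 11 reading frames in the table. Its first reading frame, TRINITY_DN14624_c0_g1_i3.p1, had 439, 161 and 147 CPM at 0 hpi, 15, 3.34 and 9.28 CPM at 6 hpi, 4.27, 2.1 and 2.41 CPM at 18 hpi and 5.51, 0.482 and 0.513 CPM at 24 hpi. The 3 reading frames of this transcript that are not members missed the second fall, at 0.550, 0.659 and 0.974, after first falls of 3.79 to 4.22. The second fall of the 17 rests on few reads, with a median of 29 counts summed over the libraries of 6 hpi, 5 over those of 18 hpi and 8 over those of 24 hpi. With a pseudocount of 5 in place of 1 in the rule, 1 of the 17 remained, whereas all 3 members of the XIIIb component did. Together 91 members remained under that pseudocount.

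**Figure D4:**
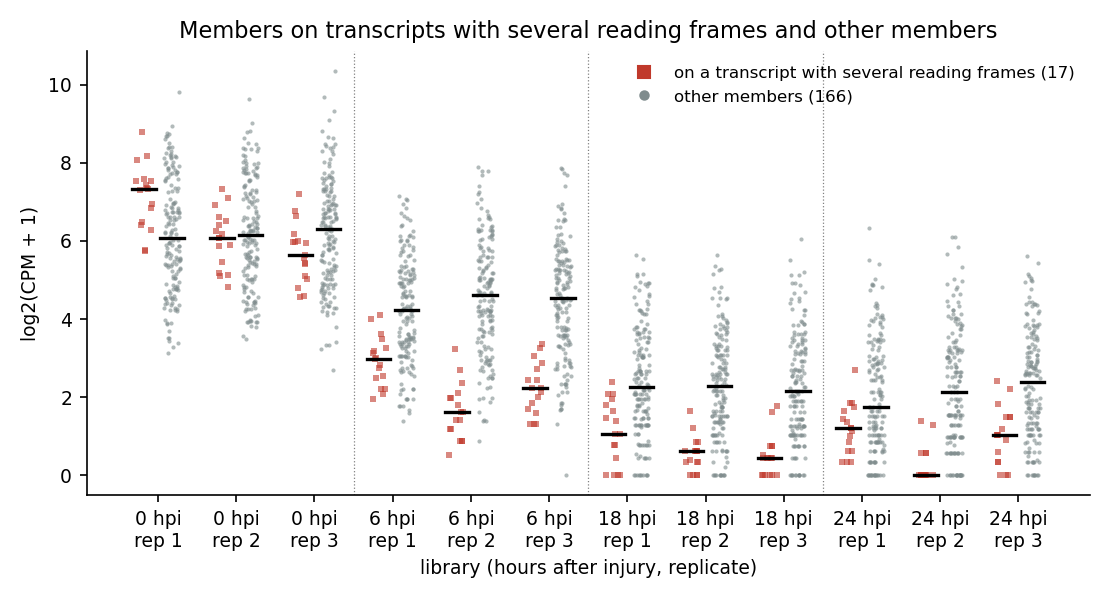
Log2(CPM + 1) is shown in each of the 12 libraries for the 17 members on transcripts with several reading frames (squares, left) and the other 166 members (circles, right), with medians as black bars. In replicate 1 of 0 hpi the squares have a median of 160 CPM against 66.1 CPM of the circles, and in all libraries of 6 hpi they are lower, with medians from 2.09 to 6.89 CPM against 17.8 to 23.4 CPM.

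Which library of 0 hpi was high differed between members, and was often shared within a component. The replicate spread was larger in members than in the window at each time point, although their levels differed. The median of the mean CPM was 3.25 at 18 hpi and 2.97 at 24 hpi in members, against 16.9 and 16.0 in the window. At 0 hpi it was 75.3 against 15.7. Low counts widen the spread at 18 and 24 hpi, and how much of it they account for was not tested. The median SD of log2(CPM + 1) was 0.431 in members, against 0.275 in the window, at 0 hpi, 0.420 against 0.265 at 6 hpi, 0.448 against 0.224 at 18 hpi and 0.571 against 0.323 at 24 hpi. Among the 97 members with the larger first fall on this scale, replicate 1 was the highest library of 0 hpi in 50 and replicate 3 in 27. Among the 86 with the larger second fall, replicate 3 was the highest in 53 and replicate 1 in 17. In the window, replicate 3 was the highest in 10262 of 25956 contigs and replicate 1 in 7790.

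Of the 20 components with 3 or more members, 14 had the same highest library of 0 hpi in all their members, which was replicate 3 in 7, replicate 1 in 6 and replicate 2 in 1. At 6 hpi 8 of the 20 had a shared highest library. Replicate 3 was at least 2-fold below the mean of the others, on CPM + 1, in 33 members (18.0%, against 3.41% of the window). All 4 members of component DN17230_c2 were among these, with a median of 20.4, 45.9 and 31.2 CPM at 6 hpi, against 254, 220 and 64.7 CPM at 0 hpi. Component DN12907_c4 showed the reverse, with a median over its 3 members of 40.1, 94.3 and 69.1 CPM at 6 hpi, against 155, 189 and 343 CPM at 0 hpi. The high or low library of 0 hpi therefore differed between components. Whether this variation between colonies bears on the falls was not tested. Without replicate 1, 2 or 3 of 0 hpi the rule gave 193, 183 and 170 members, of which 172, 171 and 161 were among the 183.

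**Figure D5:**
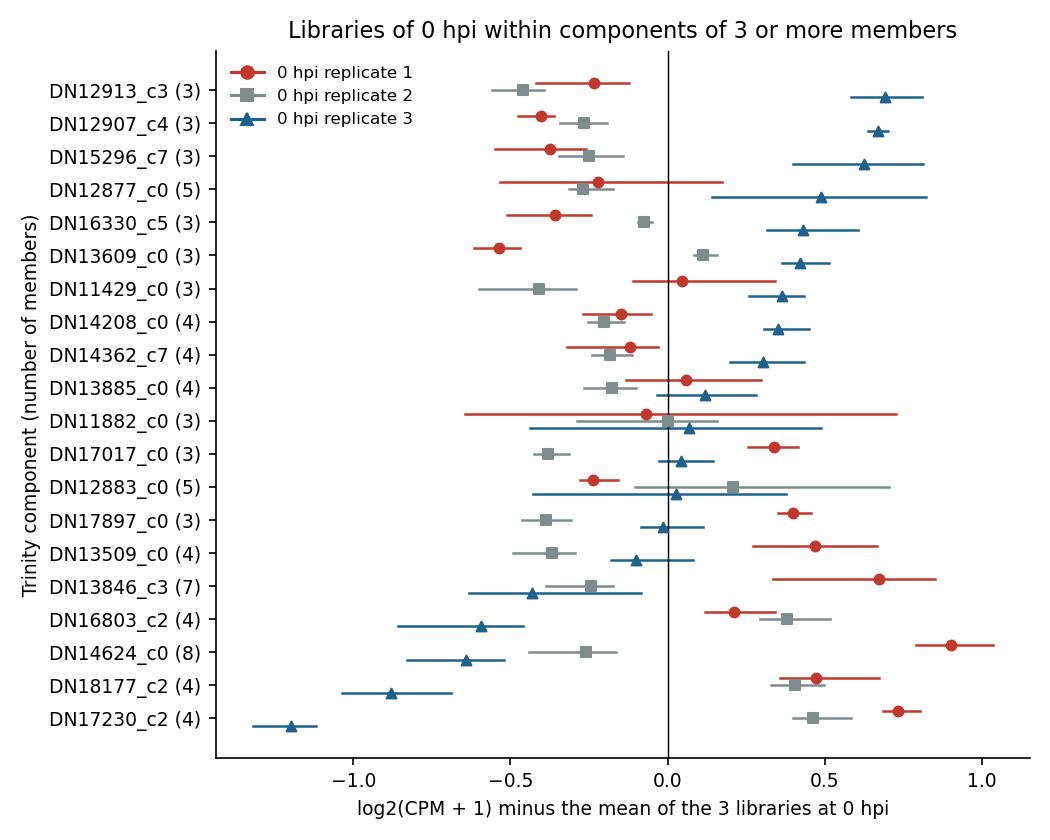
For the 20 components with 3 or more members (number of members in parentheses), each marker is the mean over members of log2(CPM + 1) in a library of 0 hpi minus the mean of the 3 libraries, and lines span the lowest to the highest member. Replicate 3 (triangles) lies to the right in DN12907_c4 and DN13609_c0 and to the left in DN17230_c2 and DN18177_c2.

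The differences between time points were also fitted over all 31383 contigs that passed the filter on low counts (edgeR's quasi-likelihood test, Benjamini-Hochberg adjusted p under 0.05 and absolute log2 fold change above 1). At 6 against 0 hpi 154 of the 183 members were called lower, against 5.03% of all contigs tested. At 18 against 6 hpi 136 were called lower (4.76% of all contigs), and at 24 against 6 hpi 131 (4.13%). Nothing is read from these counts, since the rule used the same differences.

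Between 24 and 18 hpi, a difference that the rule did not use although it bounds both means, no member was called in either direction. Over all contigs 0.0223% were called higher and 0.00319% lower. The lowest adjusted p among members was 0.377. At an unadjusted p under 0.05 there were 19 members, 10 of them higher and 9 lower at 24 hpi, which is 10.4% of the members, against 7.02% of all contigs tested. DESeq2 called 1 member and limma-voom 0. The members' median log2 fold change was 0.05, with 80% of members between -1 and 0.98, beside a median of 0.01 over all contigs, with 80% between -0.45 and 0.52. The median standard error of a member's log2 fold change was 0.60, and the median member had 5 to 12 counts in a library of 18 or 24 hpi, so that differences of 2-fold were not detectable in most members.

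The 2 members with the lowest unadjusted p, named after their values were seen, moved in opposite directions. TRINITY_DN14761_c2_g3_i1.p1 had 26, 19.3 and 19.5 CPM at 24 hpi, against 12.8, 16.6 and 9.64 CPM at 18 hpi, without overlap. Its log2 fold change was 0.82 ± 0.22 (SE), with an unadjusted p of 0.0017 and an adjusted p of 0.377 by edgeR. TRINITY_DN17017_c0_g3_i1.p1 had 9.91, 7.20 and 6.59 CPM at 24 hpi, against 17.7, 15.2 and 24.8 CPM at 18 hpi, also without overlap. Its log2 fold change was -1.16 ± 0.32 (SE), with an unadjusted p of 0.0021 and an adjusted p of 0.377, and it is the member called by DESeq2 (adjusted p 0.0433). Among the members of the XIIIb component the log2 fold changes at 24 against 18 hpi were -1.91 ± 1.04 for g2, -0.61 ± 1.06 for g4 and 0.09 ± 0.88 for g5 (SE), none past the threshold.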

How the data were processed

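RNA of 12 colonies, 3 each at 0, 6, 18 and 24 hpi, was sequenced in paired-end runs. Per the paper's methods and the labels, the authors removed ribosomal reads, trimmed with Trimmomatic 0.30, assembled with Trinity, predicted reading frames with TransDecoder, collapsed similar sequences with cd-hit-est and assigned reads with kallisto 0.43.1. The deposited values are kallisto's estimated counts per contig, without normalization, from separate libraries. A read that matches several contigs is divided between them, which gives estimates that are not whole.

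Here CPM were computed from these estimates and the rule was applied to log2(CPM + 1). For edgeR 4.0.16 (R 4.3.3) the estimates were rounded, scaled by TMM and filtered by filterByExpr, and the 12 libraries were fitted together without a covariate. DESeq2 1.42.0 and limma 3.58.1 were alternatives. The script was tested on simulated data. The p-values measure the spread between subclones. Replicates differed by more than sampling noise (chi-square per degree of freedom at least 3.14).

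The members, the lists and the rule for named contigs were chosen with earlier results of these data known. Named were the 3 members with the highest CPM at 0 hpi, the 3 with the largest smaller fall, the 2 just inside and 2 contigs just outside the threshold, the 3 with profiles nearest to XIIIb, up to 4 members called at 24 against 18 hpi (there were 0) and members sharing a Trinity gene (2 genes). None of the identifiers matched the gene table of the reference assembly, and contig sequences were not used here.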

Additional observations from a re-analysis of the deposited data

How the results depend on the processing

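The number of members depended on the rule's settings more than on any library. It was 91 with a pseudocount of 5, 277 with a step of 0.8 and 117 with a step of 1.2, beside 183 as given. With TMM sizes, a pseudocount of 0.5 or a mean CPM from 2 without an upper bound it was 208, 207 and 211, each holding all 183, and with counts summed per Trinity gene 135 genes met the rule. Leaving out single libraries gave 170 to 209 members, with 148 to 180 of the 183 kept. Calls among members ranged from 124 to 167 at 6 against 0 hpi, from 104 to 145 at 18 against 6 hpi and from 105 to 136 at 24 against 6 hpi when single libraries were left out. At 24 against 18 hpi they ranged from 0 to 1, the call being TRINITY_DN16803_c2_g1_i10.p2 without replicate 1 of 24 hpi (log2 fold change 2.09 ± 0.36 SE, edgeR adjusted p 0.0134). DESeq2 called 1 other member there, where 111 members had no adjusted p. The members' median log2 fold change at 24 against 18 hpi ranged from -0.01 to 0.13 without single libraries. It was -0.06 when scaled by library size only, beside a median of -0.09 over all contigs. That scaling moved the median of all contigs to 0.14 at 18 against 6 hpi. Of 18 same-numbered pairs of libraries 0 had deviations correlated over 0.1 (-0.139 to 0.092). Differently numbered pairs were not compared, so that this cannot show whether replicate numbers pair the samples. With the replicate block 151, 140, 134 and 0 members were called at 6 against 0, 18 against 6, 24 against 6 and 24 against 18 hpi, beside 154, 136, 131 and 0 without it. Shares over all contigs were not computed under these alternatives, and nothing is read from the counts. Depth limits the later levels, with 5 to 12 counts for the median member in a library of 18 or 24 hpi.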

Other observations

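The mirrored rule, with rises of at least 1 on the log2 scale from 0 to 6 hpi and from 6 hpi to the lower of both later means, gave 33 contigs of 23 components in the same window. Their median was 4.01 CPM at 0 hpi, 17 CPM at 6 hpi, 56.1 CPM at 18 hpi and 66.3 CPM at 24 hpi. The contig with the largest smaller rise was TRINITY_DN17034_c1_g1_i14.p1, which had 0, 0.252 and 0 CPM at 0 hpi, 7.04, 7.57 and 9.39 CPM at 6 hpi, 79.1, 52.1 and 50.1 CPM at 18 hpi and 189, 95.7 and 88.9 CPM at 24 hpi. This set was looked at after the members' values were known, and its levels made the selection, so that no test is given.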
